A study of Mus musculus with 4 samples.

Results

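The 10 genes described here encode enzymes and a transporter of oxidative stress defence that are best known as targets of the transcription factor NRF2, together with extracellular antioxidant enzymes and one producer of hydrogen peroxide. They are Hmox1, Nqo1, Gclc, Gclm, Srxn1, Txnrd1, Slc7a11, Gpx3, Nox4 and Sod3, chosen by name from the 23482 genes of the deposited table. The study sequenced quadriceps RNA in 2 libraries from Thbs1-transgenic mice (Thbs1-TG), which overexpress thrombospondin-1, a secreted matricellular glycoprotein, and in 2 from non-transgenic controls (NTG), all on the FVB/N strain at 6 to 8 weeks of age. The promoter that drives the transgene, and the number of animals behind each library, are not given in the sources used here. The p-values therefore measure the spread between these libraries, which may be technical. The one comparison of the design is Thbs1-TG against NTG muscle.

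NRF2, encoded by Nfe2l2, is held in the cytosol by KEAP1, which feeds it to a CUL3 ubiquitin ligase. Oxidants and electrophiles modify cysteines of KEAP1, NRF2 then accumulates, pairs with small MAF proteins and binds antioxidant response elements, while BACH1 occupies the same elements as a repressor. Contracting muscle makes superoxide and hydrogen peroxide, and the products of these genes make glutathione, reduce thiols, clear haem and quinones, and remove peroxide or superoxide inside and outside the cell.

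The libraries held 20053685 and 19813029 reads in genes in Thbs1-TG muscle and 19380650 and 18815221 in NTG muscle, and markers of the labelled tissue were abundant, with Acta1, the skeletal alpha-actin, at 6830 RPKM on average in Thbs1-TG muscle and 8624 RPKM in NTG muscle. RPKM are reads scaled by the length of the authors' gene model and by each library's reads in genes. Thbs1 was at 12900 and 15411 RPKM in Thbs1-TG muscle, against 8.61 and 12.2 RPKM in NTG muscle. Its reads were 12.0% and 14.4% of each Thbs1-TG library, against 0.00802% and 0.0114% of each NTG library, so the share left for all other genes was smaller in Thbs1-TG libraries. Thbs1-TG library 1 stood apart for adipocyte markers, and its endothelial and smooth muscle markers were also above those of Thbs1-TG library 2. These markers are given below.

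Most members had higher values in Thbs1-TG muscle, and 2 members passed the test. Nox4, an NADPH oxidase that makes hydrogen peroxide, was 4.82-fold higher in mean RPKM, and Sod3, the extracellular superoxide dismutase, was 3.27-fold higher. Nox4 was under 1 RPKM in both NTG libraries, so it entered the test, and the count of 2, through its Thbs1-TG values. Sod3 passed at the threshold (limma adjusted p = 0.0499). In 8 of the 9 tested members both Thbs1-TG libraries lay above both NTG libraries, as they did in 38.4% of all tested genes, and 0 lay below, where 19.7% of all tested genes did. Txnrd1 was the tested member whose groups overlapped. At an adjusted p under 0.05 (limma on log2(RPKM + 1), Benjamini-Hochberg over 10015 tested genes) 2 of 9 tested members were higher, where 6.25% of all tested genes were, and 0 were lower, where 1.22% of all tested genes were. At an unadjusted p under 0.05, limma gave 6 members higher, where 20.4% of all tested genes were, and 0 lower, where 7.46% were. By limma-voom at an adjusted p under 0.05, 3 members were higher, where 6.13% of all tested genes were, and 0 lower, where 1.71% were. At an adjusted limma p under 0.1, 5 members were higher, where 13.0% of all tested genes were. Slc7a11 reached 1 RPKM in no library and was not tested.

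The number of members called depended on how the libraries were scaled. With library totals taken without Thbs1, 6 members were called higher (Nox4, Sod3, Hmox1, Srxn1, Gclm and Gclc), where 14.6% of all tested genes were. With median-of-ratios scaling 3 were (Nox4, Sod3 and Srxn1), where 5.0% of all tested genes were. Over all tested genes the median log2 fold change was 0.10 on RPKM, 0.26 with totals without Thbs1 and -0.04 with median-of-ratios scaling. A scaling shifts all genes of a library together, so values relative to that median are nearly the same by construction. Nox4 stood 1.28, 1.24 and 1.32 above it, Sod3 1.40, 1.42 and 1.37 above it, and Txnrd1 lay below it by each scaling, at -0.11, -0.09 and -0.14. The added 1 RPKM lowers the values of low genes, so the order of Nox4 and Sod3 depends on it. With 0.1 RPKM added instead, the log2 fold change was 2.19 for Nox4 and 1.63 for Sod3. By limma-voom it was 2.35 and 1.64. The median over the 9 tested members was 0.69, against 0.10 over all tested genes. In this bulk tissue, more RNA per cell and more cells of a type cannot be told apart.

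**Figure D1:**
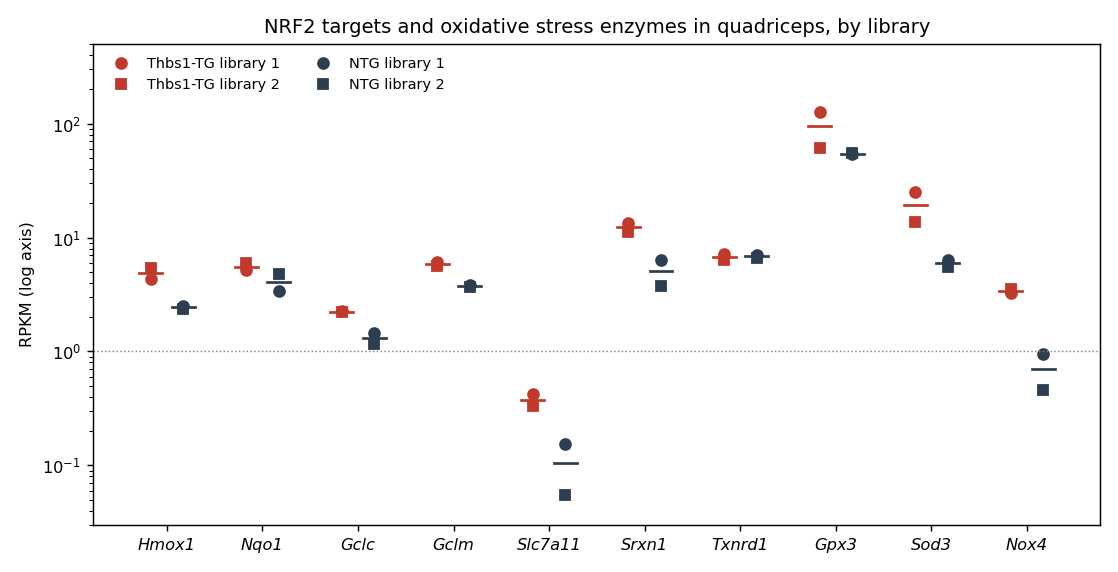
RPKM of the 10 genes on a log axis, with one point per library, Thbs1-TG in red left of NTG in dark blue, and a short bar at each group mean of 2 libraries. The Thbs1-TG points lie above the NTG points for every gene but Txnrd1, and Slc7a11 lies below the dotted line at 1 RPKM in all libraries.

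**Figure D2:**
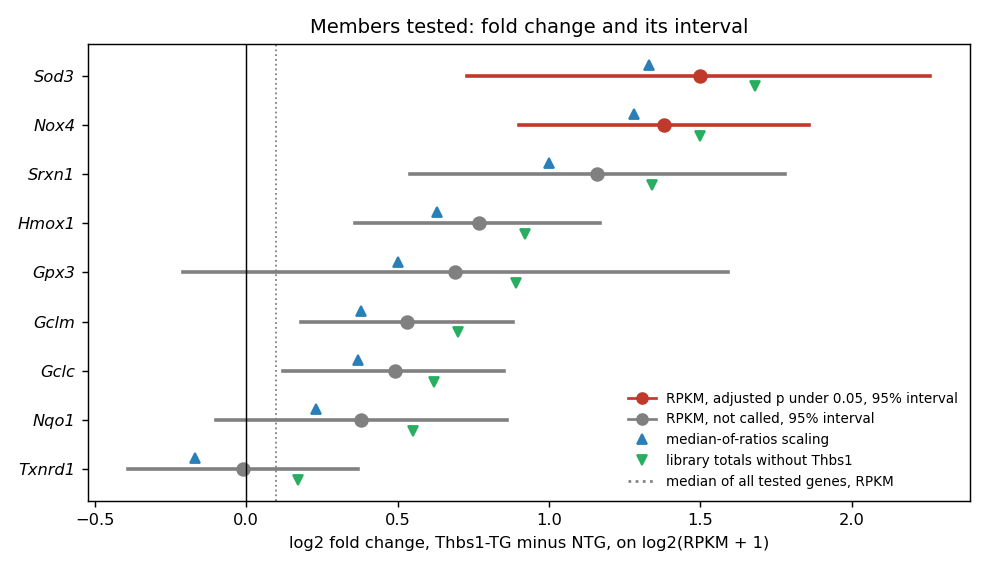
Log2 fold change of the 9 tested members, Thbs1-TG minus NTG, with its 95% interval, in red where the adjusted p is under 0.05, and the same value under 2 other scalings as triangles. Sod3 and Nox4 are called, and Nox4 entered the test through its Thbs1-TG values. The added 1 RPKM lowers the value of Nox4 more than that of Sod3. Txnrd1 lies on either side of 0 depending on the scaling.

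Nox4 makes hydrogen peroxide without the cytosolic subunits that the phagocyte enzyme needs, and it was the member with the smallest p. It had 3.23 and 3.56 RPKM in the Thbs1-TG libraries, against 0.955 and 0.456 RPKM in the NTG libraries. Both Thbs1-TG libraries were high and close to each other, while the NTG libraries differed 2.09-fold, on 97 and 45 reads. The groups did not overlap, and the lowest Thbs1-TG value was 3.39 times the highest NTG value. Its mean was 3.40 ± 0.232 RPKM in Thbs1-TG muscle and 0.705 ± 0.352 RPKM in NTG muscle (SD, n = 2 each). The log2 fold change was 1.38 (SE 0.19, 95% interval 0.90 to 1.86, limma adjusted p = 0.0225). This value and its interval are on a scale where the added 1 RPKM exceeds both NTG values. With 0.1 RPKM added instead, the log2 fold change was 2.19. Both NTG values were under 1 RPKM, so Nox4 entered the test through its Thbs1-TG values. The call was lost with no filter on low values (limma adjusted p = 0.0709), where 135 of 17769 tested genes were called higher. Without NTG library 2 the log2 fold change was 1.17, in a fit that takes the spread of the lone library from the other pair. Nox4 lies on the forward strand of chromosome 7 from 87246096 to 87398710 (GRCm38, GENCODE M21).

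Of the other oxidase genes, 2 subunits of the phagocyte enzyme rose. Cybb, the catalytic subunit of the phagocyte oxidase, had 1.81 and 1.52 RPKM in Thbs1-TG muscle, against 0.479 and 0.427 RPKM in NTG muscle (log2 fold change 0.87, adjusted p = 0.0313). Ncf4, a cytosolic regulator of the same enzyme, had 1.31 and 1.96 RPKM in Thbs1-TG muscle, against 0.125 and 0.257 RPKM in NTG muscle (log2 fold change 1.14, adjusted p = 0.0302). Both, like Rac2 and Ncf1, were under 1 RPKM in NTG muscle and entered the test through their Thbs1-TG values. Rac2, the haematopoietic RAC GTPase, had 1.34 and 1.63 RPKM in Thbs1-TG muscle and 0.428 and 0.573 RPKM in NTG muscle (adjusted p = 0.0504). Cyba, the membrane partner that NOX4 and the phagocyte enzyme share, had 3.68 and 5.42 RPKM in Thbs1-TG muscle, against 2.62 and 2.93 RPKM in NTG muscle (log2 fold change 0.54, adjusted p = 0.156). Rac1, the ubiquitous RAC, was at 52.3 RPKM on average in Thbs1-TG muscle and 52.1 RPKM in NTG muscle. Of the 14 genes of this list 8 were tested, 2 rose and 0 fell, with 5 higher and 0 lower at an unadjusted limma p under 0.05 and 2 higher by limma-voom. Fits with a library left out take the spread of the lone library from the other pair, so their counts cannot settle these calls. Nox3 and Noxa1 are listed at 0 in all libraries. The ratio of Nox4 to Cyba in RPKM was 0.878 and 0.657 in the Thbs1-TG libraries and 0.365 and 0.156 in the NTG libraries. For Nox4 to Cybb it was 1.78 and 2.34 in the Thbs1-TG libraries and 1.99 and 1.07 in the NTG libraries, so the groups overlapped.

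**Figure D3:**
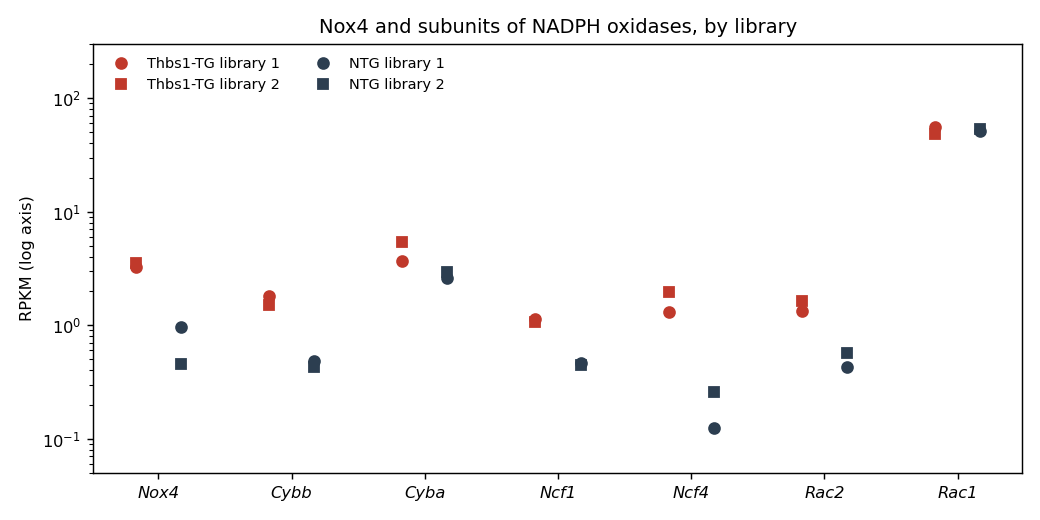
RPKM of Nox4 and of subunits of NADPH oxidases on a log axis, with one point per library, Thbs1-TG in red left of NTG in dark blue. Nox4, Cybb, Cyba, Ncf4, Ncf1 and Rac2 lie higher in both Thbs1-TG libraries, and Rac1 lies between 48.5 and 56.1 RPKM in all 4.

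Markers of macrophages and fibro-adipogenic cells were counted beside these genes. Of 15 macrophage markers 11 were tested and 9 rose, led by Ctss (log2 fold change 2.29, limma adjusted p = 0.0078), Cd14 (1.48, 0.012), C1qb (1.81, 0.0127) and C1qa (1.60, 0.013). Cd68, among the 9, and Adgre1, tested and not called, were under 1 RPKM in both NTG libraries and entered the test through their Thbs1-TG values. The summed level of all 15 macrophage markers was 294 and 260 RPKM in Thbs1-TG muscle, against 88.3 and 60.1 RPKM in NTG muscle. Lyz2 alone made up 172 and 155 RPKM of it in Thbs1-TG muscle and 55.4 and 29.4 RPKM in NTG muscle. Of the 15, 0 had no reads. Of 12 fibro-adipogenic markers, all tested, 2 rose, Lum (log2 fold change 1.75, adjusted p = 0.0238) and Pi16 (1.29, adjusted p = 0.0261). The groups overlapped for 8 of the 12, 3 had negative log2 fold changes (Clec3b at -0.12, Ly6a at -0.12 and Gsn at -0.17), and the median was 0.31. That list summed to 660 and 573 RPKM in Thbs1-TG muscle, against 538 and 345 RPKM in NTG muscle, and 0 of them had no reads. The fit without NTG library 2 called almost no gene at all, so it cannot separate these lists from other genes. The part of either cell type in the values of Nox4, Cybb, Ncf4 or Hmox1 was not tested.

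Sod3 and Gpx3 encode extracellular enzymes. Sod3 removes superoxide in the matrix, where it binds heparan sulfate. It had 25.3 and 13.6 RPKM in the Thbs1-TG libraries, against 6.39 and 5.5 RPKM in the NTG libraries. Both Thbs1-TG libraries were above both NTG libraries, and Thbs1-TG library 1 was 1.87 times library 2. Its log2 fold change of 1.5 (SE 0.30, 95% interval 0.73 to 2.26) had a limma adjusted p = 0.0499. This call lies at the threshold. It was lost with a pseudocount of 0.1 (limma adjusted p = 0.0556). With no filter it was lost too (0.112), where 135 of 17769 tested genes were called higher. The log2 fold change was 1.59 and 1.41 without NTG library 1 or 2. It was 1.07 without Thbs1-TG library 1 and 1.93 without Thbs1-TG library 2. Fits with a library left out take the spread of the lone library from the other pair, so they cannot settle the call. Sod3 lies on the forward strand of chromosome 5 from 52363791 to 52371418.

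Gpx3, the secreted selenium-dependent glutathione peroxidase, had 127 and 61.4 RPKM in the Thbs1-TG libraries, against 53.7 and 55.4 RPKM in the NTG libraries. Thbs1-TG library 1 was far above the other 3, and Thbs1-TG library 2 was 1.11 times the higher NTG library. No change was called, with a log2 fold change of 0.69 (SE 0.35, 95% interval -0.21 to 1.59, limma adjusted p = 0.278). It was 0.17 without Thbs1-TG library 1 (adjusted p = 0.775) and 1.21 without Thbs1-TG library 2 (adjusted p = 0.031). Gpx3 stood at the 95.2 percentile of mean RPKM among tested genes, the highest level of the set. It lies on the forward strand of chromosome 11 from 54902453 to 54910377.

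Adipocyte markers differed between the same libraries. All 8 listed markers were higher in Thbs1-TG library 1 than in Thbs1-TG library 2, by 4.87-fold for Retn to 17.8-fold for Cidec, and none of them is listed at 0. Their summed level was 944 and 104 RPKM in the Thbs1-TG libraries and 120 and 145 RPKM in the NTG libraries. Of the 4 tested markers 0 rose and 0 fell by limma or limma-voom, and 0 had an unadjusted p under 0.05. Adipoq, the adipocyte hormone adiponectin, was at 31.7 and 3.14 RPKM in Thbs1-TG muscle, against 3.21 and 2.74 RPKM in NTG muscle (log2 fold change 1.55, adjusted p = 0.345). Other markers were also higher in Thbs1-TG library 1 than in library 2. They were all 8 endothelial markers (1.32-fold to 2.14-fold) and all 7 smooth muscle and pericyte markers (1.21-fold to 6.42-fold). So were 11 of 12 fibro-adipogenic, 13 of 15 macrophage and 3 of 9 muscle fibre markers. The part of fat tissue or of these other cells in the values of Gpx3 and Sod3 was not tested.

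**Figure D4:**
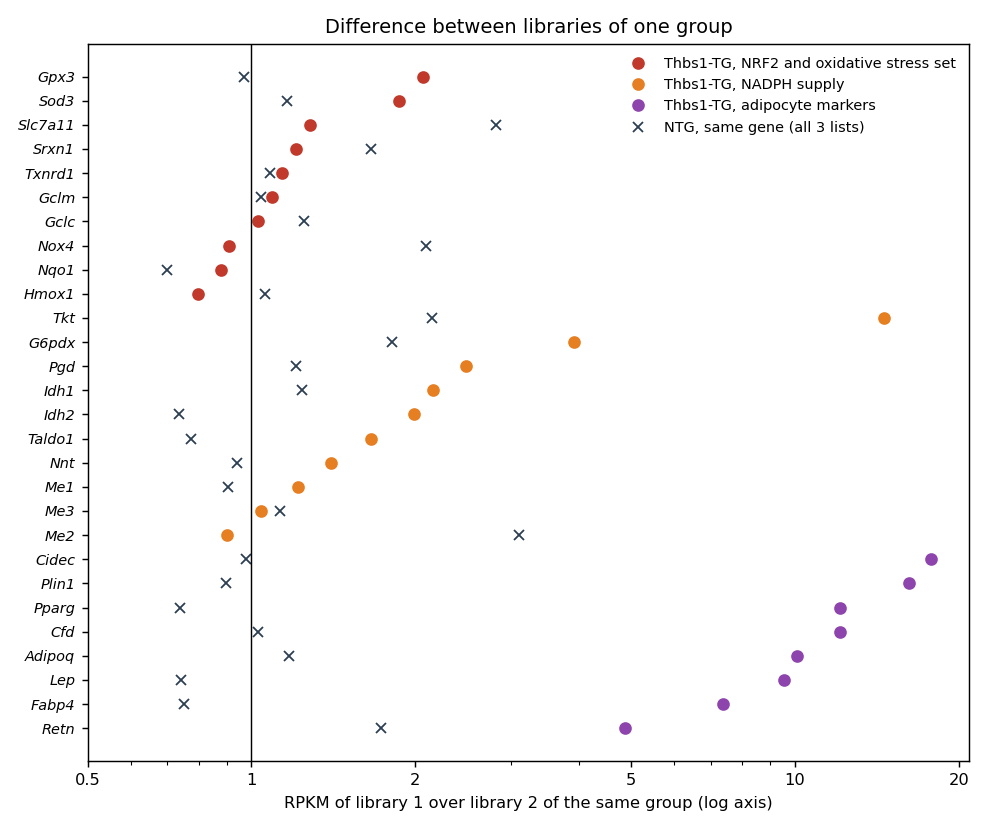
RPKM of library 1 over library 2 of the same group, on a log axis, for the 10 genes of the set, the 10 genes of NADPH supply and 8 adipocyte markers, with filled points for Thbs1-TG and crosses for NTG. Adipocyte markers and Tkt differ 4.87-fold to 17.8-fold between the Thbs1-TG libraries, Gpx3 and Sod3 2.07-fold and 1.87-fold, and the other members of the set 1.28-fold at most.

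Promoter sequences are shown for Srxn1, Gclm and Slc7a11, which hold matches to a loose form of the antioxidant response element core. Nox4, which has the smallest p of the set and no match, is shown too. Sequences are the 250 bases before the RefSeq start of each gene in GRCm38.p6, 5′ to 3′ on the strand of the gene, at chr2:152105274-152105523, chr3:122245307-122245556 and chr7:87246399-87246648 on the forward strand and chr3:50443614-50443863 on the reverse strand. Capitals mark matches to TGANNNNGC on either strand, where N is any base.
Srxn1: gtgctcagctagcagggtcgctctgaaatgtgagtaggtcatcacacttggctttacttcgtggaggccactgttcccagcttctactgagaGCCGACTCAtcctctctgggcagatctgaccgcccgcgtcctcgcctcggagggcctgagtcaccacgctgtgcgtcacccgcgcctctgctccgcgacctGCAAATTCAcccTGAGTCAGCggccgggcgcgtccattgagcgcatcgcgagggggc
Gclm: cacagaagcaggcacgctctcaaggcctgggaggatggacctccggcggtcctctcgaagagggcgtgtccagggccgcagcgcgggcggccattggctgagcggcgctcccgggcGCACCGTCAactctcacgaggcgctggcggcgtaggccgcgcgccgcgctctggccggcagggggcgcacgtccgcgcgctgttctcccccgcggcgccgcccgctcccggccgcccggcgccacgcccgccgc
Slc7a11: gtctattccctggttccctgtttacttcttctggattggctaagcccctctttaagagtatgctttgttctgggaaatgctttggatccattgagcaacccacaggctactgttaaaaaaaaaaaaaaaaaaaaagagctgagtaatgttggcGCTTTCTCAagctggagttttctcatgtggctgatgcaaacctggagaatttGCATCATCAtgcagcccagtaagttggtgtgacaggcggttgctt
Nox4: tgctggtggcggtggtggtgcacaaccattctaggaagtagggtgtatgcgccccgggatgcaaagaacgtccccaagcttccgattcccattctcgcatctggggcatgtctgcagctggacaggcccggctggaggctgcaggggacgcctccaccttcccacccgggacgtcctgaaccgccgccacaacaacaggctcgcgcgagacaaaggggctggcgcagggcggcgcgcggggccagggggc
The RefSeq start of Nox4 lies downstream of its GENCODE start. Srxn1 holds 3 matches in this window, and the one on the gene's strand, TGAGTCAGC, begins 45 bases before the start and also holds the AP-1 motif TGAGTCA. The match of Gclm, read on the other strand as TGACGGTGC, also fits the stricter TGACNNNGC. Slc7a11 holds 2 matches, and in this window no match of Srxn1 or Slc7a11 fits TGACNNNGC. RefSeq promoters were matched for 7 of the 10 members, which have 9 starts in all. Txnrd1, whose group means were nearly equal, also holds a match before 2 of its 3 starts, and one of these, TGACAAAGC, fits the stricter TGACNNNGC too. Nqo1 and Gpx3 hold none. TGANNNNGC occurs in these 250 bases in 35.2% of all 32851 promoters and TGACNNNGC in 10.2%, so a match in itself is common, and it describes the letters and not a site of binding.

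Srxn1, sulfiredoxin, reduces overoxidised peroxiredoxins back to working enzyme. It had 13.4 and 11.1 RPKM in the Thbs1-TG libraries, against 6.29 and 3.79 RPKM in the NTG libraries. The Thbs1-TG libraries were close, the NTG libraries differed 1.66-fold, and the groups did not overlap. With a log2 fold change of 1.16 (SE 0.24, 95% interval 0.54 to 1.78, limma adjusted p = 0.0543) it missed the threshold. The gene passed in 8 of 12 alternatives, counting the main fit at the looser threshold of 0.1. Among the others were limma-voom on reads (adjusted p = 0.0434), median-of-ratios scaling (0.0495), and totals without Thbs1 (0.0297). It missed the threshold with a pseudocount of 0.1 (0.0668), with no filter (0.114), without Thbs1-TG library 1 (0.106) and without NTG library 2 (0.149). Srxn1 lies on the forward strand of chromosome 2 from 152105516 to 152111376.

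Txnrd1, cytosolic thioredoxin reductase, had nearly equal group means. It had 7.23 and 6.32 RPKM in the Thbs1-TG libraries, against 7.08 and 6.56 RPKM in the NTG libraries, and the groups overlapped. Its estimate was a log2 fold change of -0.01 (SE 0.15, 95% interval -0.39 to 0.37, limma adjusted p = 0.975). On 2496 to 2933 reads per library counting error was small, and the interval leaves room for a change of either sign within those bounds. The sign depended on the scaling, at 0.17 with totals without Thbs1 and -0.17 with median-of-ratios scaling. The ratio of Srxn1 to Txnrd1 in RPKM was 1.86 and 1.76 in the Thbs1-TG libraries and 0.887 and 0.577 in the NTG libraries. The authors' gene model of Txnrd1 is 20220 bases long, 2.85 times the 7086 bases that its GENCODE exons cover together, so its level beside other genes is lower in RPKM than it would be per exon base, while the fold change is untouched. Txnrd1 lies on the forward strand of chromosome 10 from 82833951 to 82897712.

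Of the 20 tested thioredoxin and peroxiredoxin genes 0 rose and 0 fell by limma or limma-voom, with 3 higher and 2 lower at an unadjusted limma p under 0.05. Prdx4, the peroxiredoxin of the endoplasmic reticulum, had 11 and 8.99 RPKM in Thbs1-TG muscle, against 6.07 and 3.04 RPKM in NTG muscle (log2 fold change 1.04, adjusted p = 0.097). Txnip, which binds and inhibits thioredoxin, had a log2 fold change of 0.65 (adjusted p = 0.0677), and Msrb3, a methionine sulfoxide reductase, of -0.63 (adjusted p = 0.0641). The substrates of sulfiredoxin Prdx1 and Prdx2 averaged 101 and 59.2 RPKM in Thbs1-TG muscle, against 86.9 and 54.7 RPKM in NTG muscle, and their groups overlapped.

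Glutathione synthesis showed small differences of one sign. Gclc, the catalytic subunit of glutamate-cysteine ligase, had 2.27 and 2.2 RPKM in the Thbs1-TG libraries, against 1.46 and 1.16 RPKM in the NTG libraries. That is a log2 fold change of 0.49 (SE 0.14, limma adjusted p = 0.102). Gclm, the modifier subunit, had 6.14 and 5.62 RPKM in the Thbs1-TG libraries, against 3.83 and 3.68 RPKM in the NTG libraries. For Gclm the log2 fold change was 0.53 with an SE of 0.14 (limma adjusted p = 0.083). Neither was called, neither gene's groups overlapped, and both were called with totals without Thbs1 (adjusted p = 0.0451 and 0.0329). The ratio of Gclc to Gclm in RPKM stayed within a narrow range, 0.369 and 0.391 in the Thbs1-TG libraries and 0.381 and 0.316 in the NTG libraries. Exons of Gclm overlap 296 bases of Gm17494 on the opposite strand and 244 bases of the pseudogene Gm6061, where reads cannot be assigned to one gene unless strand was used. Gclc lies on chromosome 9 from 77754535 to 77794485 and Gclm on chromosome 3 from 122245557 to 122270732, both on the forward strand.

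Slc7a11, the cystine importer xCT that feeds glutathione synthesis, was the least abundant member. It had 0.423 and 0.329 RPKM in the Thbs1-TG libraries, against 0.154 and 0.0544 RPKM in the NTG libraries. These values stand on 91 and 70 reads in Thbs1-TG muscle, against 32 and 11 reads in NTG muscle, and the exact Poisson 95% interval for counting error alone ran from 0.256 to 0.416 RPKM in Thbs1-TG library 2 and from 0.105 to 0.217 RPKM in NTG library 1. The Thbs1-TG libraries were both higher, and the NTG libraries differed 2.82-fold. With no filter on low values it had a log2 fold change of 0.32 with an SE of 0.07 (limma adjusted p = 0.12), on a scale where the added 1 RPKM exceeds the level of the gene. Slc3a2, the heavy chain with which xCT pairs, had 6.84 and 6.95 RPKM in Thbs1-TG muscle, against 5.01 and 5.45 RPKM in NTG muscle (log2 fold change 0.34, adjusted p = 0.188). Slc7a11 lies on the reverse strand of chromosome 3 from 49892526 to 50443614.

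Of 18 tested genes for other steps of glutathione synthesis and for glutathione transferases, 0 rose and 0 fell by limma or limma-voom, with 3 higher and 4 lower at an unadjusted limma p under 0.05. Gstm4 had a log2 fold change of 0.57 (adjusted p = 0.0968), while Gstm1 and Gstk1, also transferases, had -0.68 and -0.54 (adjusted p = 0.12 and 0.125). The median of the list was 0.16, against 0.10 over all tested genes. The Gstm genes are close paralogs, so reads may be split between them.

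Hmox1, haem oxygenase-1, breaks haem down to biliverdin, iron and carbon monoxide. It had 4.32 and 5.42 RPKM in the Thbs1-TG libraries, against 2.51 and 2.37 RPKM in the NTG libraries. The NTG libraries were nearly equal, both Thbs1-TG libraries were higher, and the fold in mean RPKM was 2. A log2 fold change of 0.77 (SE 0.16, 95% interval 0.36 to 1.17, limma adjusted p = 0.0524) missed the threshold, and the gene passed with totals without Thbs1 (adjusted p = 0.0286). Hmox1 lies on the forward strand of chromosome 8 from 75093621 to 75100589.

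Nqo1, the quinone reductase often used as a readout of NRF2, had a smaller difference. It had 5.20 and 5.92 RPKM in the Thbs1-TG libraries, against 3.36 and 4.80 RPKM in the NTG libraries. The lowest Thbs1-TG value was 1.08 times the highest NTG value, and the NTG libraries differed 1.43-fold. It had a log2 fold change of 0.38 (SE 0.19, 95% interval -0.10 to 0.86, limma adjusted p = 0.268) and was called under none of the 12 alternatives. Nqo1 lies on the reverse strand of chromosome 8 from 107388225 to 107403206.

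Among 17 further NRF2 targets, all tested, 0 rose and 0 fell by limma, with 4 higher and 2 lower at an unadjusted p under 0.05, and 1 higher and 1 lower by limma-voom. Of the 4 higher genes, 1 was under 1 RPKM in both NTG libraries and entered the test through its Thbs1-TG values. Ftl1, the ferritin light chain, had 417 and 308 RPKM in Thbs1-TG muscle, against 176 and 193 RPKM in NTG muscle (log2 fold change 0.96, adjusted p = 0.0618). Akr1b8, an aldose reductase relative, had a log2 fold change of 0.67 (adjusted p = 0.0637). Me1, the cytosolic malic enzyme that makes NADPH, had 14.4 and 11.8 RPKM in Thbs1-TG muscle, against 21.8 and 24.1 RPKM in NTG muscle (log2 fold change -0.77, adjusted p = 0.0592). The median of the list was 0.15 on RPKM, against 0.10 over all tested genes, with 11 of the 17 genes above 0 and 6 below. The ferritin heavy chain Fth1 averaged 492 RPKM in Thbs1-TG muscle and 525 RPKM in NTG muscle.

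Of the 10 regulators of NRF2, all tested, 0 rose and 0 fell by limma or limma-voom, with 1 higher and 1 lower at an unadjusted limma p under 0.05. Nfe2l2 itself had 14.6 and 13.8 RPKM in Thbs1-TG muscle, against 12.3 and 12.2 RPKM in NTG muscle (log2 fold change 0.20, adjusted p = 0.41). Keap1 averaged 4.46 RPKM in Thbs1-TG muscle and 4.69 RPKM in NTG muscle, and Bach1 averaged 3.99 RPKM in Thbs1-TG muscle and 4.01 RPKM in NTG muscle. Cul3 had 31.2 and 31.6 RPKM in Thbs1-TG muscle, against 42.6 and 48.2 RPKM in NTG muscle (log2 fold change -0.52, adjusted p = 0.106), and Sqstm1, the autophagy adaptor that competes for KEAP1, had 154 and 175 RPKM in Thbs1-TG muscle, against 96.4 and 130 RPKM in NTG muscle (log2 fold change 0.55, adjusted p = 0.17). NRF2 is controlled mainly as a protein, which RNA levels do not measure.

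NADPH feeds both glutathione reductase and thioredoxin reductase. Of 10 genes of NADPH supply, Me1 among them, all tested, 0 rose and 0 fell by limma, with 2 higher and 2 lower at an unadjusted p under 0.05, and 0 higher and 1 lower by limma-voom. Pgd, of the pentose phosphate pathway, had 25.1 and 10.1 RPKM in Thbs1-TG muscle, against 5.36 and 4.44 RPKM in NTG muscle (log2 fold change 1.53, adjusted p = 0.0862). Me2, a mitochondrial malic enzyme, had a log2 fold change of 0.99 (adjusted p = 0.0743) and Me3, another mitochondrial one, of -0.62 (adjusted p = 0.0681). Tkt, transketolase, had 32.9 and 2.25 RPKM in Thbs1-TG muscle, against 2.90 and 1.35 RPKM in NTG muscle. Tkt and G6pdx were 14.6 and 3.92 times higher in Thbs1-TG library 1, the library with the high adipocyte markers, than in Thbs1-TG library 2. G6pdx was under 1 RPKM in both NTG libraries and entered the test through its Thbs1-TG values.

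The other superoxide dismutases and glutathione peroxidases set Sod3 and Gpx3 in context. Sod2, the mitochondrial manganese enzyme, had 46.5 and 33.3 RPKM in Thbs1-TG muscle, against 79.7 and 77.9 RPKM in NTG muscle (log2 fold change -0.98, limma adjusted p = 0.0548), the opposite sign to Sod3. Sod1, the cytosolic enzyme, averaged 142 RPKM in Thbs1-TG muscle and 105 RPKM in NTG muscle (log2 fold change 0.46, adjusted p = 0.318), and Cat, catalase, had a log2 fold change of 0.50 (adjusted p = 0.314). Of the 4 tested genes of that list 0 rose and 0 fell by limma, with 0 higher and 1 lower at an unadjusted p under 0.05 and 0 higher and 1 lower by limma-voom. Gpx1, the cytosolic peroxidase, had 160 and 113 RPKM in Thbs1-TG muscle, against 65.6 and 62.9 RPKM in NTG muscle (log2 fold change 1.05, adjusted p = 0.0511). Gpx8 and Gpx7 had log2 fold changes of 0.84 and 0.31 (adjusted p = 0.251 and 0.319), while Gpx2, Gpx5 and Gpx6 are listed at 0 in all libraries. Of the 4 tested peroxidases 0 rose and 0 fell by limma, with 1 higher and 0 lower at an unadjusted p under 0.05 and 1 higher and 0 lower by limma-voom.

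**Figure D5:**
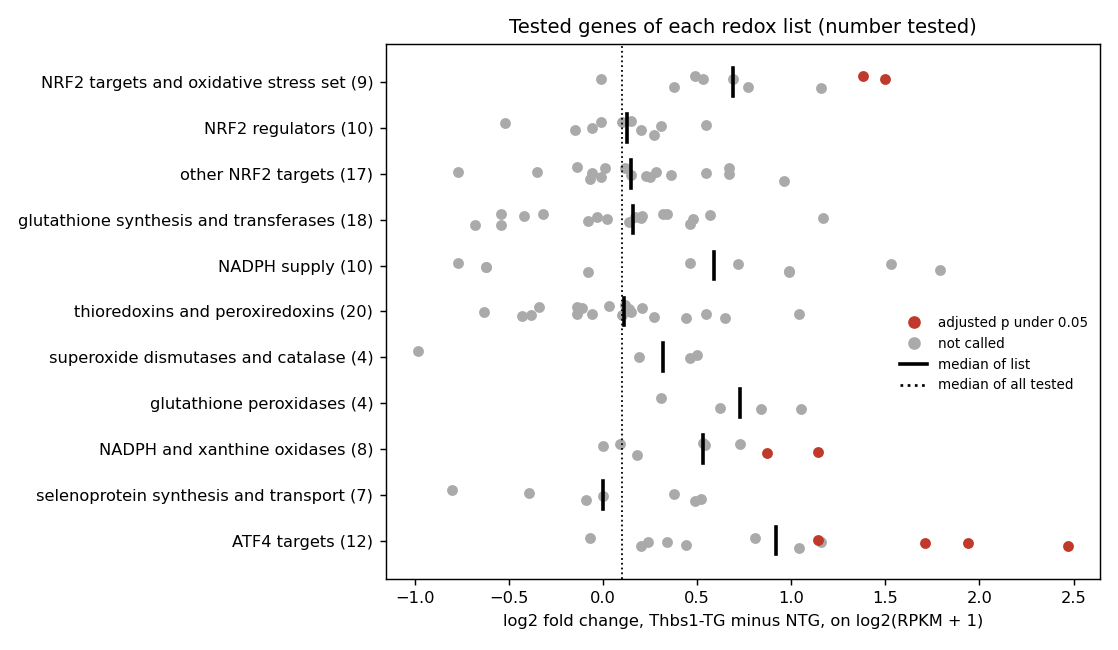
Log2 fold change of each tested gene, Thbs1-TG minus NTG, by list, with the number tested in brackets, a bar at the median of each list and a dotted line at the median of all tested genes. The set described here has a median of 0.69, between the ATF4 targets at 0.92 and glutathione peroxidases at 0.73 above it and NADPH supply at 0.59 and the oxidases at 0.53 below it. The other NRF2 targets, the regulators and the thioredoxin list have medians of 0.15, 0.13 and 0.11, and all tested genes have 0.10.

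In the authors' deposited table, which scales by size factors, 4 of the 10 members have an adjusted p under 0.1 and are higher in Thbs1-TG muscle, where 5.55% of the genes with reads are, and 0 are lower, where 3.64% are. These are Nox4 (adjusted p = 1.14e-06), Srxn1 (0.00334), Slc7a11 (0.0666) and Sod3 (0.0749), all by the authors' deposited table. Its ratios of NTG to Thbs1-TG base means for these 4 are 0.231, 0.463, 0.31 and 0.352, so values under 1 are higher in Thbs1-TG muscle. For Txnrd1 the authors' deposited table gives 1.15 (adjusted p = 0.868). Both analyses use the same libraries.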

How the data were processed

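Quadriceps RNA was sequenced in 4 libraries, 2 Thbs1-TG and 2 NTG, grouped by sample title. Tools named per the submitters' processing notes are bcl2fastq, TopHat and edgeR, and the build is mm10. The authors deposited RPKM per library, base means (signal values, reads over size factors, averaged by group), the ratio of NTG to Thbs1-TG base means, and p-values. RPKM and base means together gave whole reads for every value (tolerance 1e-06 reads). Of 23482 genes, 5713 had no reads, and 27 symbols altered in the table were restored. A gene was tested if 2 or more libraries reached 1 RPKM, which 10015 did, with limma 3.58.1 (R 4.3.3, two-sided, mean-variance trend) on log2(RPKM + 1), which understates changes of low genes, at an adjusted p under 0.05. A count test had been foreseen only for a file of counts. The fit was also run on simulated reads with the same spread for all genes and only upward changes. That run differs from these libraries, so it does not bear on the calls. Alternatives covered pseudocount, filter, scaling, limma-voom, threshold, a replicate block and each library left out. Members and lists were chosen with earlier results of these data known. One gene of the oxidase list is not reported here. Named are all members, genes of each list past the threshold or, where fewer than 3 passed, up to 3 with the smallest p, Nfe2l2, Keap1 and Bach1, and up to 4 called genes per marker list. Others named (Acta1, Fth1, Prdx1, Prdx2, Sod1, Rac1, Cyba, Slc3a2, Sqstm1, Tkt, G6pdx, Adipoq, Retn, Cidec, Cd68, Adgre1, Lyz2, Clec3b, Ly6a, Gsn, Ncf1, Selenop, S100a9 and Retnlg) were chosen after their values were seen. Promoters are from RefSeq (GRCm38.p6) and gene coordinates from GENCODE M21 (GRCm38, also named mm10). Depth covers reads in genes, and Poisson intervals cover counting error only.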

Additional observations from a re-analysis of the deposited data

How the results depend on the processing

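The number of genes called was 748 of those tested, and 1569 with library totals without Thbs1, 146 with no filter and 1705 at an adjusted p under 0.1. Of the members, 2 were called higher, against 6 with totals without Thbs1 and 5 at an adjusted p under 0.1. It was 1 with a pseudocount of 0.1 and 0 with no filter, where 10 members were tested. Over all 10015 tested genes 626 were called higher, 1465 with totals without Thbs1 and 1303 at an adjusted p under 0.1. With a pseudocount of 0.1 it was 504 of them, and with no filter 135 of 17769. Leaving out one library gave 1 to 651 called genes and 0 to 4 members higher. The lowest values of both came without NTG library 2, where 1987 genes had an unadjusted limma p under 0.05. Such fits take the spread of the lone library from the other pair. The cause was not tested. No member was called lower under any alternative. The sign of Txnrd1 turned, to 0.17 with totals without Thbs1 (adjusted p = 0.431), 0.07 without Thbs1-TG library 2 and 0.04 without NTG library 1 (range -0.10 to 0.07 over libraries left out), and no other tested member changed sign. A replicate block gave 561 called genes, 497 of them higher, and 3 members called higher, Srxn1 (limma adjusted p = 0.0419) with Nox4 and Sod3. Deviations of same-numbered libraries correlated at 0.0742 over genes, and the labels give them no more than a shared number. The filter of at least 5 RPKM dropped Hmox1, Gclc and Nox4. With 2 libraries per group, only large changes relative to the spread can pass.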

Other observations

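Other lists touch this set through selenium, amino acid stress or other cells. Of 7 tested genes for selenoproteins and their synthesis, 0 rose and 0 fell by limma, with 0 higher and 2 lower at an unadjusted p under 0.05 and 0 higher and 1 lower by limma-voom. Selenow, a small muscle selenoprotein, had 414 and 457 RPKM in Thbs1-TG muscle, against 703 and 823 RPKM in NTG muscle (log2 fold change -0.80, limma adjusted p = 0.0673), while Selenop, the plasma selenium carrier, averaged 19.1 RPKM in Thbs1-TG muscle and 12.7 RPKM in NTG muscle. Sephs1 and Selenon had log2 fold changes of -0.39 and 0.49 (adjusted p = 0.161 and 0.204). Of 12 tested ATF4 targets, a list that shares Slc3a2, Chac1 and Sesn2 with the redox lists, 4 rose and 0 fell. They were Asns, Trib3, Psat1 and Slc7a5, at log2 fold changes of 2.47, 1.94, 1.71 and 1.14 (limma adjusted p = 0.0078, 0.0078, 0.0123 and 0.0283). The fit without NTG library 2 called almost no gene at all, so it cannot separate this list from other genes. Asns, Trib3 and Psat1 were under 1 RPKM in both NTG libraries and entered the test through their Thbs1-TG values.

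Markers of other cells were not called. Of 8 tested endothelial, 6 smooth muscle and pericyte, 1 neutrophil and 9 muscle fibre markers, 0 rose and 0 fell by limma. At an unadjusted p under 0.05 only the fibre list of these 4 had members, 2 higher and 4 lower, and by limma-voom 1 of its members was higher and 2 were lower. The neutrophil gene Ly6g was not matched, and S100a9 and Retnlg are listed at 0 in both NTG libraries. The fibre markers summed to 20563 and 21953 RPKM in Thbs1-TG muscle, against 29322 and 31956 RPKM in NTG muscle.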
